A study of Mus musculus with 13 samples.

Results

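The genes described here encode the proteins of the cytosolic ribosome. They are the protein-coding mouse genes whose symbol starts with Rpl, or with Rps not followed by 6k, leaving out symbols with -ps. The rule found 88 such genes, 54 Rpl and 34 Rps, among 55487 gene IDs in the deposited count table. Of these 88, 87 had any count and 86 had enough counts to be tested, among 18015 genes tested in all. The rule works by name, so it also takes in genes whose products are not standard subunits, such as Rpl7l1 and Rps19bp1. It leaves out ribosomal proteins under other names, such as those of Fau and Rack1.

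The study profiled sinoatrial node pacemaker cells (PC), the cells that set the heart beat, against right atrial cardiomyocytes (RACM), the working muscle next to them. All 6 RNA libraries came from neonatal Hcn4-GFP/Myh6-mCherry mice, in which green marks cells expressing the pacemaker channel gene Hcn4 and red marks cardiomyocytes. The junctions of 8 to 10 hearts were pooled per replicate, digested and sorted by flow cytometry. There were 3 PC and 3 RACM libraries, named p0, p2 and p4 in each cell type. What the number stands for is not given in the labels of the RNA libraries. The study's 7 ATAC-seq samples were not used. Each pool is called a biological replicate in the labels.

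Each ribosome has a large subunit, built with the Rpl proteins, and a small subunit, built with the Rps proteins. Their messenger RNAs are among the most abundant of the cell and typically begin with a run of pyrimidines (C or T in the gene), the 5′ terminal oligopyrimidine motif, through which growth signals such as mTORC1 regulate their translation. Since all the proteins are needed in fixed proportion, their genes are usually expressed in step. In heart and skeletal muscle Rpl3 has a muscle-restricted paralogue, Rpl3l.

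Libraries held 14141151 to 22290996 counts in total. Of 10 pacemaker markers, 9 were higher in PC, and Isl1 had 3677 counts over the PC libraries against 2 over the RACM libraries. Of 9 atrial markers, 5 were lower in PC. The summed level of 10 macrophage markers was 10.9 to 49.6 CPM (counts scaled to a common library size, as counts-per-million values) in PC and 173 to 783 CPM in RACM, with 8 of the 10 lower in PC. C1qa in PC p2 and Fcgr1 in PC p0 were at 0. The summed level of 10 fibroblast markers was 951 to 2324 CPM in PC and 1877 to 11490 CPM in RACM, and none of the 10 was at 0 in any library. The part of these other cells in the results was not tested.

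The stretches around the RefSeq transcript start are shown for 6 genes on which the results turn. They run from 20 bases before the start to 20 bases from it, 5′ to 3′ on the gene's strand. Capitals mark a tract of C followed by at least 4 letters that are C or T, with its first letter between 10 bases before and 20 bases after the start. Rpl10 was the only gene of the group that passed the test between the cell types, Rpl3l had the highest fold change, Rps6, Rpl15 and Rplp2 carry the tract at the start, and Rps10 had the lowest level among tested members.
Rpl10: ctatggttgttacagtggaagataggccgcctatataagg
Rpl3l: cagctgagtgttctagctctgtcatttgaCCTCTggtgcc
Rps6: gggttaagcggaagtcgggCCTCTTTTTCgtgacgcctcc
Rpl15: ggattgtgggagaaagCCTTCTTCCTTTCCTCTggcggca
Rplp2: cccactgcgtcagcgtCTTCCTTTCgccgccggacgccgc
Rps10: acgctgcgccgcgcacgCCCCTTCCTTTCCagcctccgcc

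On GRCm38.p6 these stretches lie at chrX:74270796-74270835 for Rpl10 (plus strand), chr17:24727806-24727845 for Rpl3l (plus), chr4:86857348-86857387 for Rps6 (minus), chr14:18270967-18271006 for Rpl15 (minus), chr7:141447631-141447670 for Rplp2 (plus) and chr17:27635225-27635264 for Rps10 (minus). The tract began 1 base before the annotated start in Rps6 and ran over 10 bases. In Rpl15 it ran over 17 bases and in Rps10 over 13. The short run in Rpl3l began at base 10 of the transcript and held 5 bases, and Rpl10 had none in its window. RefSeq start windows (250 bases before the start and 50 from it) were found for 68 of the 88 genes, 80 windows in all, and 63.8% of these windows held the tract, against 39.1% of all 32851 windows. A tract read from the annotated start base onward, whether or not it began further upstream, was found in 18.8% of the members' windows and in 2.5% of all. Searched on both strands of the whole window, the motif CCGGAAG of ETS factors was in 33.8% of the members' windows against 8.9% of all. The motif AAGATGG of YY1 was in 15.0% against 6.3%, and the TATA box TATAAA in 10.0% against 13.6%. The 45 tested members with a tract had a median log2 fold change, PC over RACM, of -0.18, and the 21 with a window but no tract one of -0.16.

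Ribosomal protein genes differed little between pacemaker cells and atrial cardiomyocytes. With edgeR's quasi-likelihood test, 1 of the 86 tested genes was lower in PC (Rpl10) and 0 were higher at an adjusted p below 0.05. Over all tested genes, 3.56% were lower in PC and 3.8% were higher. At an unadjusted p below 0.05, 4 members were lower and 1 was higher, together 5 of 86, against 21.2% of all genes. DESeq2 called 1 lower and 1 higher (Rpl10 and Rpl3l), where it called 6.58% of all genes lower and 6.21% higher. With the p number as a block, 2084 genes were called over the table against 1326 without it. With the block 5.54% of all tested genes were lower in PC, and Rpl10 was again the only member called. It was also the only member called by limma-voom, which called 1068 of the 18015 genes.

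Most members nevertheless leaned to the same side. The log2 fold change was negative, that is lower in PC, for 70 of 86 members, against 49.5% of all genes. Its median over the members was -0.17, with an interquartile range of -0.28 to -0.07, against 0.01 over all genes with a range of -0.43 to 0.37. The values were close together, since 80 of 86 members lay within 0.5 of 0 on the log2 scale, against 58.4% of all genes. These genes also had small standard errors, with a median of 0.20 against 0.36. Large and small subunit genes did not separate. The median was -0.17 over the 52 tested Rpl genes, 40 of them negative, and -0.20 over the 34 Rps genes, 30 of them negative. When library size was taken as the members' own summed count, the median over all genes moved to 0.21 and that of the members to 0.00, a value near 0 that this scaling fixes in advance. The median was -0.05 without PC p2, -0.06 without RACM p0, -0.31 without PC p4 and -0.27 without RACM p2.

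**Figure D1:**
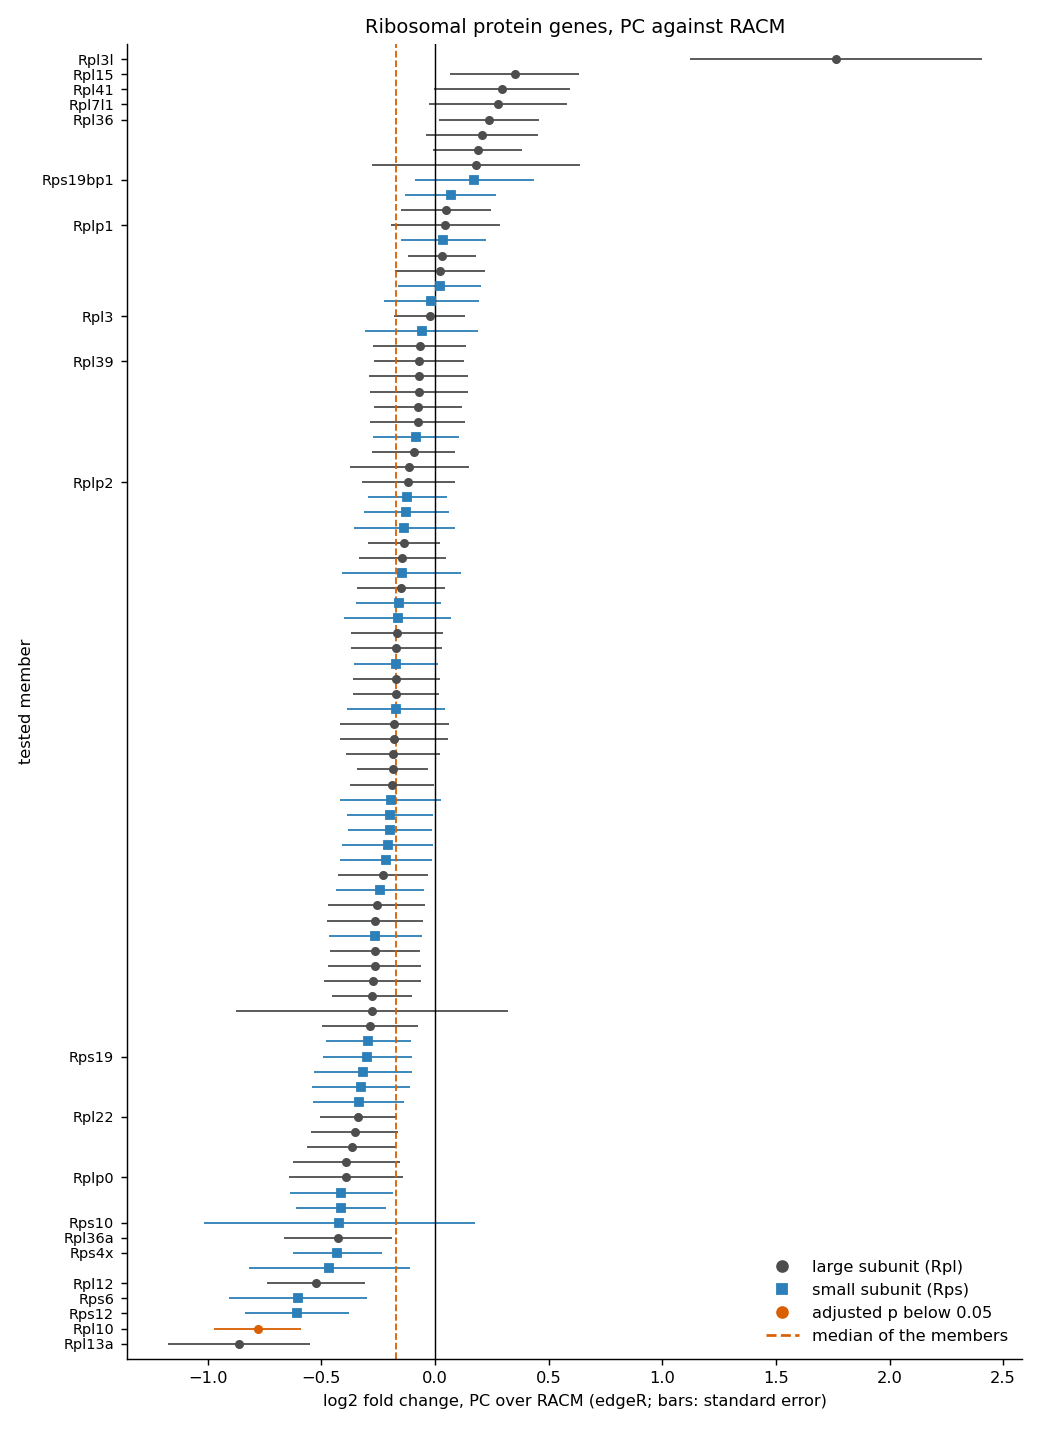
Log2 fold change of each of the 86 tested ribosomal protein genes, PC over RACM, on the x axis, with its standard error from edgeR as a bar. Circles are Rpl and squares are Rps genes, labels name some of the genes described, the dashed line is the members' median at -0.17, and only Rpl10, in orange, passed the adjusted p of 0.05.

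All PC libraries lay above all RACM libraries for 1 member (Rpl3l), against 13.5% of all genes. All PC libraries lay below all RACM libraries for 5 members (Rps4x, Rpl22, Rpl10, Rps12 and Rpl13a), against 13.4% of all genes. Both shares lie below the background.

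The lean to RACM was not the same at each p number. Here and below, 3 values in a row follow the order p0, p2, p4. Summed over the 88 genes, PC libraries reached 13348, 10945 and 16186 CPM, and RACM libraries 17691, 13029 and 15318 CPM. RACM was the higher of the pair at p0 and p2 and the lower at p4, and the cell types overlapped. The means were 13493 ± 2624 CPM in PC and 15346 ± 2331 CPM in RACM (SD, n = 3), a ratio of 0.879 with an exact 2-sided permutation p of 0.5, where 0.1 is the smallest that 3 libraries against 3 can give. Within p number the ratio of PC to RACM was 0.754 at p0, 0.84 at p2 and 1.06 at p4. Single genes followed the sum, with PC below RACM for 77 of 86 members at p0, 70 at p2 and 29 at p4, where all genes stood at 51.3%, 49.2% and 51.2%. In bulk samples of sorted cells, fewer cells of a type and less RNA per cell cannot be told apart.

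**Figure D2:**
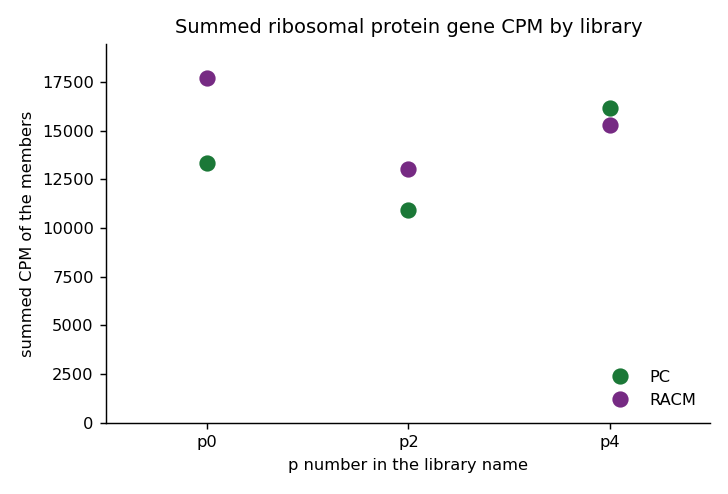
Summed CPM of the 88 ribosomal protein genes on the y axis, by the p number of the library on the x axis, with 1 point per library. RACM is above PC at p0 and p2, PC is above RACM at p4 (16186 against 15318 CPM), and p2 is the lowest of its cell type in both.

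Across libraries the genes moved up and down as a block. In each cell type p2 was the library with the lowest level for most members, for 70 of 86 in PC and 75 of 86 in RACM, against 35.7% and 29% of all genes. The highest library differed between the cell types. In PC it was p4, for 69 of 86 members, and in RACM it was p0, for 67 of 86. This order was not particular to the members. Summed mitochondrial ribosomal protein genes had it too, at 3386, 2857 and 3883 CPM in PC and 3211, 2230 and 2421 CPM in RACM. Translation initiation and ribosome biogenesis genes also had their lowest sums at p2 in both cell types. Elongation genes had theirs at p2 in PC but at p4 in RACM. Against its own mean over the 6 libraries, the median member stood at -0.08, -0.35 and 0.17 on the log2 scale in the PC libraries, and at 0.31, -0.13 and 0.09 in those of RACM. From p0 to p4, 58 of 86 members were higher in PC and lower in RACM, as were 22.2% of all genes, with 1 library behind each point.

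**Figure D3:**
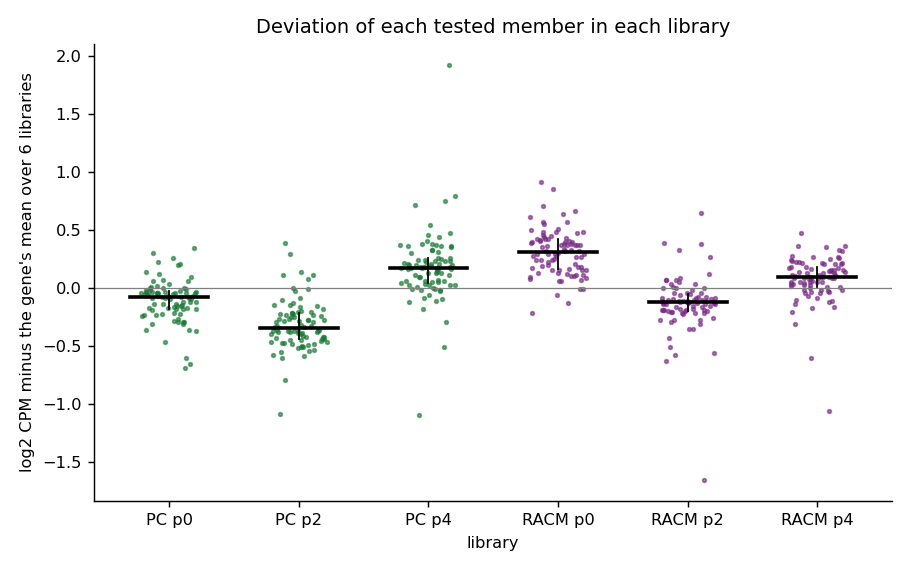
Log2 CPM of each of the 86 tested members minus that gene's mean over the 6 libraries, by library. Each point is 1 gene, the thick bar is the median and the thin line the interquartile range; PC p2 has the lowest median (-0.35) and RACM p0 the highest (0.31).

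An F test of the p number, with cell type in the model, called 0 members by edgeR, and 1 gene or 0.00555% of all tested genes. The lowest adjusted p of a member was 0.221. At an unadjusted p below 0.05 there were 21 of 86 members, against 12% of all genes. The median difference of p2 from p0 was -0.36 on the log2 scale, negative for 82 of 86 members, against 0.00 over all genes, and that of p4 from p0 was 0.03. The 5 members of smallest p were Rplp1, Rpl15, Rplp0, Rpsa and Rps2. DESeq2 called Rplp1, Rpl15 and Rplp0 (adjusted p of 0.0129, 0.0199 and 0.027), as did edgeR without the filter on low counts (0.0251, 0.024 and 0.0334). DESeq2 and that edgeR fit called 3.72% and 1.55% of all genes, and the 3 of 86 members lie near the first share. With limma-voom 0 members were called, and 170 of the 18015 genes. Without RACM p4 edgeR called 9 of 86 members, among them Rps6, Rplp0, Rpl15 and Rpsa, and 2.2% of all genes.

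Exon length moved with the p2 values. It takes in all exon bases counted for a gene and need not match the length of its transcripts. Among the other protein-coding genes, the 1309 shortest by exon length (up to 1885 bases) stood at -0.22 in PC and -0.16 in RACM at p2 against the mean of p0 and p4 (log2 of CPM plus 1), and the 3271 longest (from 7064 bases) at 0.08 and 0.04. The members, with a median exon length of 1730 bases, stood at -0.39 and -0.33. The summed dividing-cell markers were 190, 115 and 502 CPM for PC, the same order as the members' sum, and 181, 230 and 926 CPM for RACM, a different order. Macrophage, endothelial, smooth muscle and epicardial marker sums likewise had the members' order in PC only, and erythroid markers had it in RACM only. Atrial markers had it in both cell types. Fibroblast, pacemaker, sarcomere and neuron marker sums had it in neither. The part of length and of any of these cells in the result was not tested.

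Levels differed far more between members than between cell types. Per length, in CPM per 1000 bases of exon (FPKM), the tested members spanned 843-fold, from 653 for Rplp1 to 0.775 for Rps10. Their median was 65.2 FPKM, against 3.15 over all tested genes. The highest levels included those of Rplp1, Rpl41, Rps15, Rps4x, Rpl32, Rpl36, Rps3a1, Rps27rt and Rpl4. Rplp1, an acidic protein of the stalk, was at 664 ± 190 FPKM in PC and 643 ± 150 FPKM in RACM (SD, n = 3). Rpl41, the smallest ribosomal protein, was at 536 ± 235 and 437 ± 95.1 FPKM, and these neighbours in the order do not differ beyond their spread. At the low end, Rpl39l, a paralogue of Rpl39 known from testis, had 0 counts in all PC libraries and a mean of 0.164 FPKM in RACM. Rpl36al and Rps10 were at 2.84 and 0.661 FPKM in PC.

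**Figure D4:**
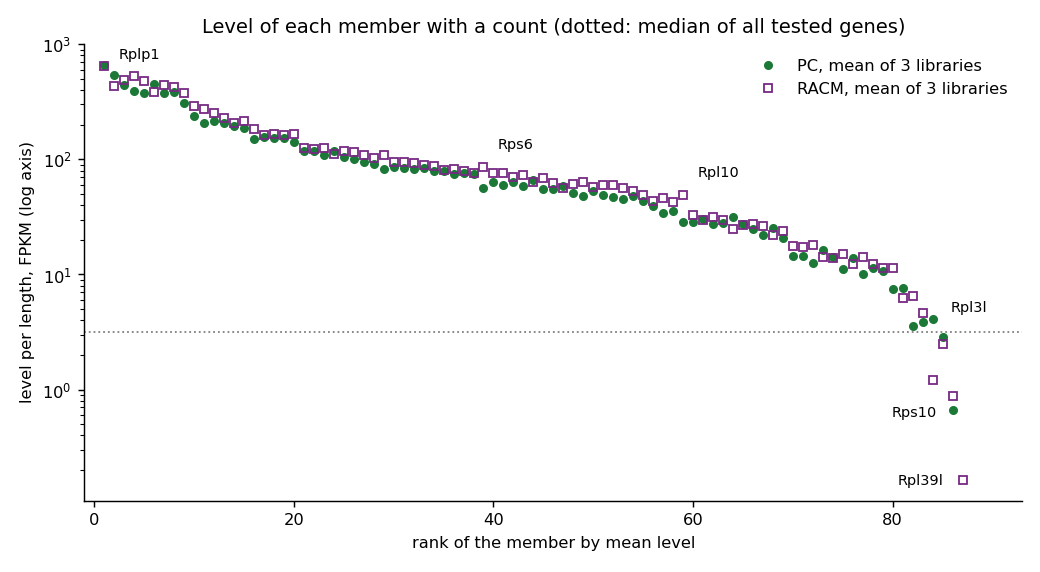
Mean level per length in FPKM (log axis) of the 87 members with a count, ranked on the x axis by their mean over 6 libraries, with PC as filled circles and RACM as open squares. The range runs from Rplp1 at 653 FPKM down to Rpl39l, which is at 0 in PC and so has no circle; the dotted line is the median of all tested genes at 3.15 FPKM.

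How far these levels follow the true RNA amounts depends on counting. Ribosomal protein genes have many near-identical processed copies, and the table holds 300 symbols with -ps of the same name start. The 26 tested members without such a copy had a median of 72.9 FPKM, and the 60 with at least 1 had 58.2 FPKM, with median log2 fold changes of -0.15 and -0.18. Rps12 has 24 copies by symbol and Rps10 has 4. Exon bases shared with another gene were found in 39 members, up to 66.2% of a member's exon bases. The share was 35.4% in Rpl13a, whose introns host small nucleolar RNAs, and 28.7% in Rps10. Low levels of such genes are uncertain. FPKM also divides by all exon bases of a gene, which ran from 374 to 6270 over the tested members and need not match transcript length. Rps24, at 468 CPM in PC, thus ranked below Rps27rt, at 145 CPM in PC. The order of levels and the paralogue shares per length depend on this.

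Of the large subunit, Rpl10, which joins the subunit late and helps form the peptidyl transferase centre, was lower in PC. It lies on chromosome X at 74270812 to 74273135 (mm10, plus strand). PC libraries held 59.1, 49.9 and 67.0 CPM, and RACM libraries 117, 79.7 and 106 CPM. Every PC library was below every RACM library. The log2 fold change was -0.78 ± 0.19 (SE), with an adjusted p of 0.0411 by edgeR, 0.0115 with the block, 0.00589 by DESeq2 and 0.0497 by limma-voom. From 3360 counts in PC and 5219 in RACM, the ratio was 0.589, with an exact binomial 95% interval of 0.564 to 0.616 that covers counting error only. The call was lost when any 1 of the 6 libraries was left out (adjusted p of 0.0501 to 0.126 by edgeR) and when counts of the 6 -ps symbols of Rpl10 were added (log2 fold change of -0.88, adjusted p of 0.126 by edgeR). Its testis paralogue Rpl10l had 0 counts in every library.

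Rpl3l, the muscle paralogue of Rpl3, had the highest fold change of the group. It lies on chromosome 17 at 24727820 to 24736143 (mm10, plus strand), and was counted at 3.96, 4.19 and 12.2 CPM across PC libraries, against 3.45, 1.02 and 1.54 CPM across RACM libraries. The cell types did not overlap, but PC p0 and RACM p0 were close and PC p4 stood far above the rest. The log2 fold change was 1.76 ± 0.64 (SE), and its adjusted p was 0.144 by edgeR and 0.0491 by DESeq2. Without PC p4 it was 1.03. Its counts, 403 in PC and 99 in RACM, gave a ratio of 3.73 with an exact binomial 95% interval of 2.98 to 4.69. This interval covers counting error only and not the spread between libraries. PC p4 alone held 258 of the PC counts. Rpl3 itself was level, at 278, 219 and 264 CPM for PC and 276, 246 and 251 CPM for RACM, with a log2 fold change of -0.02 ± 0.16. Per length, Rpl3l was therefore at 2.76%, 3.69% and 8.93% of Rpl3 in PC and at 2.42%, 0.8% and 1.18% in RACM. The exact permutation p of this share was 0.1, the smallest possible, and 0.533 after adjustment over 8 such ratios.

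The other large subunit genes at the ends of the order did not pass the test. Rpl13a, which in free form is known to silence inflammatory messenger RNAs, gave 7.19, 8.31 and 6.95 CPM for PC against 18.7, 10.3 and 11.9 CPM for RACM, with a log2 fold change of -0.86 ± 0.31 and an adjusted p of 0.144 by edgeR. The cell types did not overlap. Rpl12, at the base of the stalk, had -0.52 ± 0.22. On the opposite side were Rpl15 with 0.35 ± 0.28, Rpl41 with 0.30 ± 0.30, Rpl7l1 with 0.28 ± 0.30 and Rpl36 with 0.24 ± 0.22. Without PC p4 none of these values stayed positive. Rpl41 gave 445, 492 and 941 CPM for PC against 584, 382 and 564 CPM for RACM, and without PC p4 its log2 fold change was -0.12. Rpl15 gave 66.7, 55.3 and 112 CPM for PC against 64.0, 45.2 and 74.5 CPM for RACM, with PC the higher at each p number. Without PC p4 its value was -0.0025, which is close to level. Without both p4 libraries it was 0.14, where Rpl41, Rpl7l1 and Rpl36 turned negative.

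**Figure D5:**
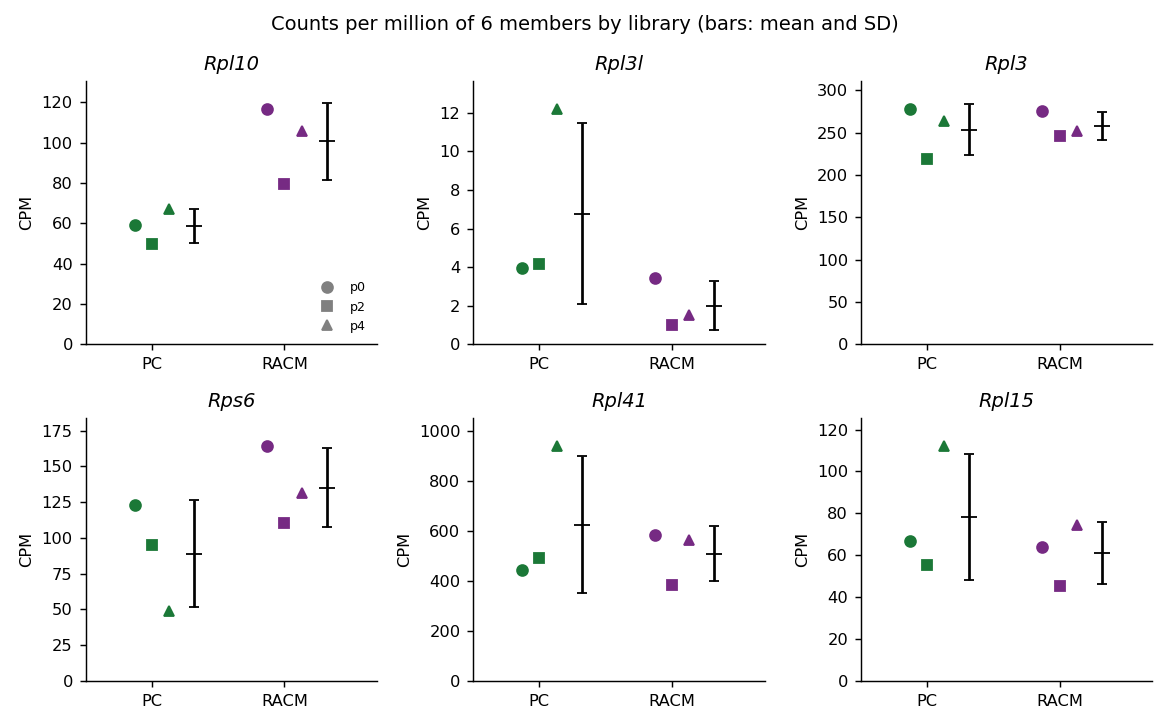
CPM of Rpl10, Rpl3l, Rpl3, Rps6, Rpl41 and Rpl15 in each library, with the symbol shape giving the p number and the bar the mean and SD of 3 libraries. Rpl10 and Rpl3l do not overlap between the cell types, Rpl3 is level, and PC p4 stands apart in Rpl3l, Rps6, Rpl41 and Rpl15.

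Of the small subunit, Rps6, the protein phosphorylated by S6 kinases downstream of mTORC1, departed from the group in 1 library. It lies on chromosome 4 at 86854660 to 86857412 (mm10, minus strand). PC libraries held 123, 95.1 and 49.2 CPM of it, and RACM libraries 164, 110 and 131 CPM. PC p4 was the lowest of the 6, although it was the library in which most members were highest in PC. The log2 fold change was -0.60 ± 0.30, with an adjusted p of 0.302 by edgeR. Without PC p4 it was -0.31, without PC p0 -0.91, and with the counts of its -ps copies added -0.30. Rps12, a small subunit protein of the head, gave 11.9, 18.7 and 15.2 CPM for PC against 22.2, 24.2 and 23.4 CPM for RACM, with no overlap. Its log2 fold change was -0.61 ± 0.23, with an adjusted p of 0.161 by edgeR, and -0.40 with the counts of its -ps copies added. Rps4x, encoded on the X chromosome like Rpl10, gave 678, 519 and 731 CPM for PC against 1001, 737 and 856 CPM for RACM. The cell types did not overlap, but its log2 fold change of -0.43 ± 0.19 had an adjusted p of 0.245 by edgeR. Rpl39 and Rpl36a, also on X, had -0.07 ± 0.20 and -0.43 ± 0.24.

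The stalk of the large subunit, which recruits the elongation factors, is made of Rplp0 and pairs of Rplp1 and Rplp2. None of the 3 passed the test between cell types. Rplp0 gave 403, 275 and 355 CPM for PC against 631, 352 and 374 CPM for RACM, highest at p0 in both. Rplp1 gave 302, 254 and 437 CPM for PC against 275, 280 and 407 CPM for RACM, highest at p4 in both. Rplp2 gave 289, 258 and 402 CPM for PC against 363, 287 and 380 CPM for RACM, again highest at p4. The difference of p4 from p0 was 0.55 on the log2 scale for Rplp1 and -0.47 for Rplp0, with adjusted p of 0.221 and 0.282 for the p number by edgeR. Whether the stalk genes differ from each other over the p number was not tested. Rpsa and Rps2, the other small subunit genes of small p, differed by 0.28 and 0.41 between p4 and p0.

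The share of a paralogue in its parent gene was computed for 8 pairs of members, and for each pair but Rpl3l and Rpl3 it overlapped between the cell types. Per length, Rpl22l1 was at 37.8 ± 6.78% of Rpl22 in PC and 34.3 ± 3.99% in RACM. Rpl22, which also regulates splicing, lay lower in every PC library with a log2 fold change of -0.34 ± 0.17. Rps27l, a p53-inducible paralogue, was counted above its parent, at 268 ± 19.6% of Rps27 in PC and 237 ± 42.6% in RACM. The count of Rps27 is itself uncertain, because reads may go to its copy Rps27rt, described below. In PC the mean was 62.4 CPM for Rps27l, 30.0 CPM for Rps27 and 145 CPM for Rps27rt. Whether Rps27l exceeds its parent is therefore uncertain. Rpl36al was at 26.6 ± 7.9% of Rpl36a in PC and 16.4 ± 3.05% in RACM, and Rpl7l1 at 8.73 ± 2.15% and 6.64 ± 0.682% of Rpl7. Rpl37rt, a copy of Rpl37, was at 71.9 ± 1.21% of it in PC and 70.6 ± 3.14% in RACM. Rps19, whose loss causes Diamond-Blackfan anaemia in people, had a log2 fold change of -0.30 ± 0.19, and Rps19bp1 had 0.17 ± 0.26.

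Rps27rt, an intronless copy of Rps27, was counted at 1340 ± 83.2% of Rps27 per length in PC and 1290 ± 28.6% in RACM. The starts of the pair are shown to 30 bases, because their likeness bears on which of them a read is counted for. Capitals mark the shared run, which is 38 bases long in full and begins at base 2 of Rps27 and base 1 of Rps27rt.
Rps27: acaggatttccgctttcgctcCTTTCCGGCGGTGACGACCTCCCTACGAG
Rps27rt: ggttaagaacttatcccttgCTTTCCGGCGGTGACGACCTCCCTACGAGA

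On GRCm38.p6 these stretches are chr3:90213619-90213668 for Rps27 and chr9:114982710-114982759 for Rps27rt, both on the minus strand. Reads from such runs cannot be assigned with certainty, and the levels of both genes are uncertain for this reason.

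Of the ribosomal proteins named otherwise, Fau had a log2 fold change of 0.08 ± 0.19 and Rack1 one of -0.40 ± 0.18, with adjusted p of 0.863 and 0.246 by edgeR. Of 29 translation initiation genes 0 were called, where 7.36% of all tested genes were. The smallest p were those of Eif1ax, with 0.53 ± 0.17 and an adjusted p of 0.103, and Pabpc1, with -0.43 ± 0.19 and 0.239. Of 12 elongation genes, Eef1a2, the elongation factor form of adult muscle and neurons, was higher in PC at 79.8 ± 2.99 against 37.9 ± 5.93 CPM (SD, n = 3). Its log2 fold change was 1.07 ± 0.17, with an adjusted p of 0.0065 by edgeR. Eef1a1, the general form, was at 1692 ± 232 against 2139 ± 383 CPM, with -0.34 ± 0.20. Of 20 other genes with terminal oligopyrimidine mRNAs, 0 were called and the median was -0.05. The smallest p of these was that of Naca, with 0.51 ± 0.18.

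Among 46 ribosome biogenesis genes, 1 was higher and 1 lower in PC, with a median of -0.03. Over all tested genes, 3.8% were higher and 3.56% lower. Polr1b, a core subunit of RNA polymerase I, gave 78.7, 145 and 110 CPM for PC against 13.2, 14.3 and 11.9 CPM for RACM. Its log2 fold change was 3.08 ± 0.24, with an adjusted p of 1.66e-04 by edgeR. Gnl3 (nucleostemin), a nucleolar GTPase of dividing cells, averaged 16.5 ± 1.78 CPM for PC and 30.8 ± 3.12 CPM for RACM (SD, n = 3), with -0.90 ± 0.20 and an adjusted p of 0.0265 by edgeR. Among 24 tested genes of growth control, Myc, a transcription factor that drives ribosome production, gave 14.1, 5.83 and 10.2 CPM for PC against 29.0, 41.8 and 65.1 CPM for RACM. Its log2 fold change was -2.17 ± 0.38, with an adjusted p of 0.0102 by edgeR. Rptor, the defining subunit of mTORC1, was higher in PC, with 0.81 ± 0.16 and 0.0179. No other gene of these lists was called. The 76 tested mitochondrial ribosomal protein genes leaned the other way, with 8 negative values, a median of 0.37 and 0 called by edgeR, or 4 with the p number as a block. Whether this median differs from that of the cytosolic genes was not tested.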

How the data were processed

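Per the labels' protocols, total RNA of the sorted pools was made into cDNA with an amplification kit (Ovation RNA-Seq System V2) and read from both ends. The deposited table holds raw counts per gene over exons (mm10), made with featureCounts 2.0.1 per the file headers, without a strand or multi-mapping option. Trimmomatic, HISAT2 and edgeR are named without version per the submitters' processing notes. The deposited exon length column, a number of bases, was used for FPKM.

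Symbols came from the reference table (55141 of 55487 IDs matched), biotypes and start windows from RefSeq, GRCm38.p6. Genes passing filterByExpr (minimum count 10, total 15) entered edgeR 4.0.16 under R 4.3.3 with TMM factors. The robust quasi-likelihood test was 2-sided, and its p-values were adjusted by Benjamini-Hochberg over all 18015 genes, with a threshold of 0.05. CPM and FPKM use TMM-scaled library sizes. DESeq2 1.42.0 and limma-voom 3.58.1 were alternatives, as were other scalings and filters, added -ps copies, left-out libraries and the p number as a block. The functions were tested on simulated data. Intervals take in counting error alone, because they rest on counts summed over the libraries of a cell type. They treat reads as independent, although the reads were amplified. The pools are the replicates. In the unpaired tests the p-values rest on the spread between libraries of a cell type, which also holds any difference between p numbers.

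A check was made of whether libraries of the same number deviate together. The correlation across genes, after subtracting the mean of the cell type, was 0.219 (p0), 0.306 (p2) and 0.281 (p4), each above 0.1. On this ground alone, since no label states it, libraries of 1 number were treated as pairs in the alternatives with the p number as a block. The main tests between the cell types, DESeq2, limma-voom and the permutation tests were unpaired.

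The members, lists and tests were chosen with earlier results of these data known. Named are the 10 highest and 3 lowest nonzero levels per length, called members, the 5 largest and 5 smallest fold changes, the 5 smallest p for the p number, the stalk, the paralogues, members not tested, and per other list the 2 of smallest p and the first called of opposite sign. Some genes that this rule names are not reported here.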

Additional observations from a re-analysis of the deposited data

Results flagged for a closer look

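The summed level of the members in PC over RACM was 1.06 at p4, while it was 0.754 at p0 and 0.84 at p2. With 1 library per cell type and number, this difference between p numbers was not tested. The p4 pair also had the highest summed fibroblast markers of each cell type (2324 CPM in PC and 11490 CPM in RACM), whose part in the ratio was not tested.

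Symbols of the same name start that are not protein-coding in RefSeq were left out by the rule, yet 4 of 5 had counts. Rps4l, a relative of Rps4x annotated as a transcribed pseudogene, had 4873 counts over the 6 libraries. In the order p0, p2, p4 it gave 54.2, 45.1 and 65.9 CPM for PC against 36.1, 30.4 and 32.5 CPM for RACM, so that all PC libraries were above all RACM libraries. Its log2 fold change was 0.74 ± 0.19, with an adjusted p of 0.0481 by edgeR, while that of Rps4x was -0.43 ± 0.19. Whether the pair differs was not tested. Rpl6l had 5007 counts, Rps3a2 had 6997 and Rps3a3 had 3020, with log2 fold changes of -0.26, -0.33 and -0.24, none of which passed the test.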

How the results depend on the processing

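The number of members higher in PC was 1 by DESeq2 (Rpl3l, adjusted p of 0.0491) and 0 otherwise. The number lower in PC was 0 with -ps copies added, scaled to the summed members, without both p4 libraries and in every fit that left out 1 library (0 to 0), and 1 in the other fits. The log2 fold change of Rpl10 stayed between -0.92 and -0.65 with 1 library left out. For the p number 3 members were called without the low-count filter and 3 by DESeq2, and 0 to 9 with 1 library left out. DESeq2 called 670 of all genes for it, and edgeR without the filter 511. The cause of these changes was not tested. The members' median log2 fold change was 0.0035 when scaled to the summed members, -0.36 without both p4 libraries and -0.31 to -0.0485 with 1 library left out, and stayed negative in the other fits. The summed ratio stayed below 1 in every alternative, at 0.794 to 0.967 with 1 library left out. With the replicate block the summed ratio was 0.875, and the block changed no call of a member. edgeR without robust moderation was added after seeing the data.

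Over 34 named genes and 609 alternative values, 38 changed sign, none past the threshold either way. Of these, 8 came from scaling to the summed members, which moved the median over all genes from 0.01 to 0.21. Such changes of sign are no evidence on single genes. With 1 library left out, the log2 fold change ran from -0.20 to 0.25 for Rplp1, -0.12 to 0.49 for Rpl41, -0.36 to 0.0906 for Rps15, -0.0112 to 0.39 for Rpl36, -0.39 to 0.0228 for Rps27rt, -0.042 to 0.47 for Rpl36al and -0.0806 to 0.54 for Rpl7l1. It ran from -0.0025 to 0.55 for Rpl15, -0.42 to 0.0223 for Rpsa, -0.11 to 0.23 for Rps2, -0.0929 to 0.0792 for Rpl3, -0.29 to 0.0132 for Rpl7, -0.21 to 0.12 for Rpl39, -0.23 to 0.27 for Rps27l and -0.32 to 0.0182 for Rplp2. Scaled to the summed members it was 0.0359 for Rps15, 0.0373 for Rps27rt, 0.0014 for Rpsa, 0.17 for Rpl3, 0.0229 for Rpl7, 0.14 for Rpl39, 0.16 for Rps27l and 0.058 for Rplp2. Without both p4 libraries it was -0.0225 for Rplp1, -0.0655 for Rpl41, -0.07 for Rpl36, -0.0843 for Rpl7l1 and -0.0262 for Rps19bp1. Rplp1 was at -0.0089 with upper-quartile scaling and -0.0048 with the 5 CPM filter, and Rpl3 at 0.13 with -ps copies added.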
